A study of Mus musculus with 12 samples.

Results

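The genes that encode the proteins of the ribosome were followed through an ATAC-seq series on mouse myeloid progenitors. ATAC-seq reads out open chromatin, since the transposase used can cut only accessible DNA. Members were taken by symbol alone. They carry the names Rpl or Rps followed by a number (large and small subunit of the cytosolic ribosome), Mrpl or Mrps followed by a number (the mitochondrial ribosome), or Rpsa, Rplp0, Rplp1 and Rplp2. Symbols of the Rps6k kinases and cytosolic pseudogene symbols were left out. In the authors' deposited tables of 4 comparisons, 164 of 30120 listed regions were annotated to such a gene. In the RefSeq annotation 167 of 21900 protein-coding genes carried such a symbol. For 138 the start came from the RefSeq promoter table, and for 29 the gene end with the stronger peak was used. Of the 167 genes, 158 had a called peak within 500 bases of a start placed in this way. These starts lay in 159 of the 11231 promoter regions of the series, 48 for Rpl, 33 for Rps, 50 for Mrpl and 28 for Mrps genes. Mrps11 and Mrpl46 shared 1 region and Mrpl48 had 3.

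The cells were granulocyte-monocyte progenitors from C57BL6 mouse bone marrow that carry ER-HOXA9, and every group, the controls included, was grown with stem cell factor and beta-estradiol. The Day0 group was taken untreated, and the other 5 groups were taken on day 2 after DMSO (Vehicle), 200 nM GSK-LSD1, which blocks LSD1, an enzyme that demethylates histones (LSD1i), 5 uM mercaptopurine, a purine analogue (6MP), 5 uM cerulenin, an inhibitor of fatty acid synthase (CER), or the 3 drugs together (Combo). Each of the 6 groups had 2 libraries, labelled as biological replicates. With no more stated about cultures or animals, p-values measure the spread between these libraries.

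The cytosolic ribosome is assembled in the nucleolus from ribosomal RNA and about equal numbers of each protein, so its genes are transcribed at high and matched rates in growing cells. Their transcripts often begin with a run of pyrimidines, which lets the mTOR pathway set their translation as a group. The mitochondrial ribosome is made of nuclear-encoded proteins too, and it translates the respiratory chain subunits encoded by mitochondrial DNA. Blood progenitors are known to be sensitive to ribosome dose: in human, a faulty copy of RPS19, RPL5 or RPL11 causes Diamond-Blackfan anaemia, and loss of RPS14 contributes to the 5q- syndrome.

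Short letter runs known from ribosomal protein promoters were looked up in the RefSeq promoter table of GRCm38.p6, which holds 250 bases before to 50 bases after each annotated start. It gave 156 promoters of members and 21263 promoters of protein-coding genes in all. Motifs were searched on both strands, each on its own, so 1 promoter can hold several and matches can overlap. The letters CCGGAAG, the core bound by GABP and other ETS factors, stood in 34.0% of member promoters and in 11.6% of all promoters. The share was 33.3% for cytosolic and 34.7% for mitochondrial members. The YY1 letters AAGATGGC stood in 12.8% of member promoters (16.0% mitochondrial, 9.88% cytosolic) and in 3.05% of all. The NRF1 letters GCGCATGCG stood in 6.41% (9.33% mitochondrial, 3.70% cytosolic) and in 2.35% of all. The SP1 letters GGGCGG stood in 55.1% against 46.2%, CCAAT in 35.3% against 38.2%, TATAAA in 8.33% against 12.6%, and the E-box CACGTG in 9.62% against 7.84%. These shares describe the letters in a fixed window and were not tested. The promoters in all include those without a called peak, and shares among promoters with a peak are not given here.

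The promoters of Rpl11, Rpsa, Mrps12 and Mrpl27 are shown because they carry the motifs and are named in the comparisons that follow. Rpl11, a large subunit protein that can bind the p53 regulator Mdm2, lies at chr4:136053344-136053643 (minus strand). Rpsa, a small subunit protein also known as the laminin receptor, lies at chr9:120127516-120127815 (plus strand). Mrps12, a small subunit protein of the mitochondrial ribosome that starts back to back with Sars2, lies at chr7:28741772-28742071 (minus strand). Mrpl27, a mitochondrial large subunit protein, lies at chr11:94653541-94653840 (plus strand). Each is read 5′ to 3′ on the gene's strand with 250 bases before the start, and capitals mark matches of the ETS, YY1, NRF1, SP1 and CCAAT letters on either strand.
Rpl11: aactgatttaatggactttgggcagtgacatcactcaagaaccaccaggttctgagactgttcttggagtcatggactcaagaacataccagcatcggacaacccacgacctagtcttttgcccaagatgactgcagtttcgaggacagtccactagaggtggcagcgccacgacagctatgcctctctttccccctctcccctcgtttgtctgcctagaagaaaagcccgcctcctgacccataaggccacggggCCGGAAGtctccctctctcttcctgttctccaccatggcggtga
Rpsa: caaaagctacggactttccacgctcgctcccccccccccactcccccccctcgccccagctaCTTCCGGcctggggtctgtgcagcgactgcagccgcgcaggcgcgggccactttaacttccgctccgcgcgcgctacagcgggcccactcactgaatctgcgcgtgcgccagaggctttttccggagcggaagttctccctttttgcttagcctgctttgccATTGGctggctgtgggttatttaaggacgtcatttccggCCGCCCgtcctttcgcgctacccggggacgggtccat
Mrps12: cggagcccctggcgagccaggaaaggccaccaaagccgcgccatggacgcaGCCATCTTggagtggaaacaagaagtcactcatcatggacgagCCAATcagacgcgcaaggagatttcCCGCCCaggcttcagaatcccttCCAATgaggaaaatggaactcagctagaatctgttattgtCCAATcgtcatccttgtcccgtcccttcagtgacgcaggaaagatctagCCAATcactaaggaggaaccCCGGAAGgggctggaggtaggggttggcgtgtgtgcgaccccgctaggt
Mrpl27: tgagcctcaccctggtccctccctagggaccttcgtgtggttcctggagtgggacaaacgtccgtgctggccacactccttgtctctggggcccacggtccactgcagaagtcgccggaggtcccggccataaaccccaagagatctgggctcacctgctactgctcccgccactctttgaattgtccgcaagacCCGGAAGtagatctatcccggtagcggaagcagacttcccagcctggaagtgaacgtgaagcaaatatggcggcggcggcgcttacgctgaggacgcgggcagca

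The Mrps12 promoter held the ETS, YY1, SP1 and CCAAT letters, Rpsa the ETS, SP1 and CCAAT letters, and Rpl11 and Mrpl27 the ETS letters alone among these. The start itself was looked at as well. A run of at least 6 pyrimidines that begins with C within 5 bases of an annotated start stood in 37.0% of cytosolic promoters, in 5.33% of mitochondrial ones and in 9.95% of all. The 40 bases around the start of 5 cytosolic members and of Mrpl12 are shown, with the start at base 21 and the run in capitals. Mrpl12 has pyrimidines directly before its start, but too few within 5 bases of it to make a run of 6. Rplp2 is an acidic stalk protein, Rpl15 and Rpl35 are large subunit proteins, Rps10 and Rps9 are small subunit proteins, and Mrpl12 is a mitochondrial large subunit protein known to bind the mitochondrial RNA polymerase. The windows lie at chr7:141447631-141447670 (plus strand), chr14:18270967-18271006 (minus strand), chr2:39005112-39005151 (minus strand), chr17:27635225-27635264 (minus strand), chr7:3704021-3704060 (plus strand) and chr11:120484617-120484656 (plus strand) in this order, and no run by this definition was found for Mrpl12.
Rplp2: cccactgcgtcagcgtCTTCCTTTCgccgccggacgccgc
Rpl15: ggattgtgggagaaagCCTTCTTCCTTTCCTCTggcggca
Rpl35: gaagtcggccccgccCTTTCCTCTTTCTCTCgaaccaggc
Rps10: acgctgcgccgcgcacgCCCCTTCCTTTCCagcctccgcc
Rps9: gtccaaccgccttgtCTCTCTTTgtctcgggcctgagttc
Mrpl12: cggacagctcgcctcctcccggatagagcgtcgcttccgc

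Facts of the whole series bear on these values as follows. The libraries held 42651 to 56398 called peaks. Read totals are not in the files, so depth can be judged only from background, whose floor lay between 2.44 and 4.55 fragments. The median summit over the regions shared by all 12 libraries stood 16.9 times above background in 6MP replicate 1, 23.0 times in CER replicate 2 and 28.3 to 42.7 times in the other 10. Summit signal is given throughout as log2 of the fragment pileup over background, centred so that 0 is each library's median over the shared regions. At the starts of 14 granulocyte-monocyte progenitor genes, 12 had a peak in all 12 libraries, and no peak was called within 500 bases of the starts of Elane and Prtn3. The T cell genes Cd3e, Cd3d, Cd3g, Lck and Zap70 had none, while 2 of 5 B cell, 2 of 5 erythroid, 3 of 4 megakaryocyte and 1 of 6 stromal and endothelial genes had a peak in all 12. ATAC-seq of bulk cells cannot tell more open chromatin per cell from more cells with it open.

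All 159 member promoter regions held a called peak in all 12 libraries, against 90.7% of all promoter regions. Counted by gene, 158 of 167 members (94.6%, exact Clopper-Pearson 95% interval 90.02 to 97.5%, counting error only) had a peak at the start in each library. For the 29 members placed by gene end, the end with the stronger peak was chosen, which can raise this share. The same share over all protein-coding genes is not given here, so the count is not set against a background. Of the 9 without one, Rpl10l, Rpl39l and Rpl3l are paralogs known from testis or muscle, and Rpl37rt, Rps27rt, Rps23rg1 and Rpl32l are by name retrogenes or related copies. The other 2, Mrpl4 and Rpl17, had a peak 1082 and 1028 bases from the RefSeq gene end, so their starts could not be placed here. The authors annotated these same peaks at distance 0 from the gene's start, with LSD1i folds of -0.37 and -0.38. These 2 genes thus lack a start peak only by the placing of starts used here.

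The cytosolic members had a higher median signal than the mitochondrial members, a description of levels with no test. The median summit signal over 12 libraries was 1.502 for all members, 2.83 times the median shared region, with 1.64 for cytosolic and 1.30 for mitochondrial members and 1.28 for all promoter regions. Among the 10181 promoter regions called in every library the median was 1.39, and 59 of 81 cytosolic and 33 of 78 mitochondrial members stood above this median. Members differed from each other with an SD of 0.64, while the median SD between the replicates of 1 member was 0.14. The order of members was much the same in every library, with Pearson's r over the 159 regions between 0.935 and 0.985 for the 66 pairs of libraries. These points share their sequence and peak width, so r is a description.

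The highest member was Rps29, a small subunit protein, at 2.87 on the log2 scale, followed by Rplp0, the base of the ribosomal stalk (2.67), the mitochondrial Mrps18b (2.61), Rps19 (2.57) and the large subunit protein Rpl36al (2.55). Rps29 ranged from 2.59 in 6MP replicate 1 to 3.30 in 6MP replicate 2, so its widest gap lay within 1 group, and neighbours in this order differed by less than that. The lowest were the mitochondrial Mrpl3 (-0.22), Mrps10 (-0.18), Mrps31 (-0.17) and Mrps25 (-0.15), and the X-linked small subunit gene Rps4x (-0.02). Mrpl3 ranged from -0.55 to 0.01 over the 12 libraries. Mrpl44 varied least, between 1.40 and 1.61.

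**Figure D1:**
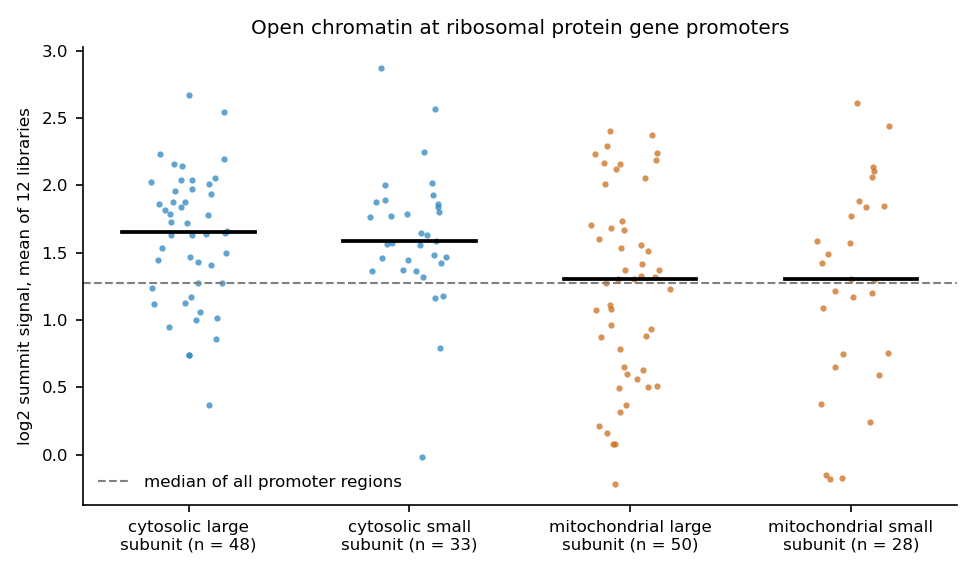
Summit signal at each member promoter region, as log2 of fragment pileup over background, centred on the regions shared by all libraries and averaged over 12 libraries. Points are regions, black bars are the medians of each subunit (48, 33, 50 and 28 regions) and the dashed line is the median of all promoter regions (1.28). Both cytosolic medians lie above the dashed line and the mitochondrial ones lie close to it.

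Many members, mitochondrial ones among them, share their promoter with another gene. A further gene started in the same region at 41.0% of mitochondrial and 21.0% of cytosolic member regions, 30.8% of all members, against 10.4% of all promoter regions. Examples are Mrps12 with Sars2, Mrpl27 with Eme1, Mrps18b with Ppp1r10 and Mrps5 with Zfp661. Rpl36al started with Mgat2 and Rpl4 with Zwilch. Open chromatin in such a region belongs to both genes. Member regions were as wide as other promoter regions (median 1365 against 1397 bases), and the strongest summit lay at a median of -18.5 bases from the start, just upstream, in both sets.

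Day0 and Vehicle differ by 2 days of culture with DMSO, and by a suffix P in the names of both Day0 libraries and of no other, whose meaning the labels do not give. Time and this suffix cannot be told apart. On the centred scale the median member signal was 1.60 and 1.58 in the Day0 libraries and 1.60 and 1.56 in the Vehicle libraries. The median difference, Vehicle minus Day0, was -0.00118 for members and -0.020 for all promoter regions, and 81 of 159 members lay below 0. Scaled by depth the medians were 0.21 and 0.19, and centred by intensity the member median was -0.045. By limma with Benjamini-Hochberg adjustment over all 39427 regions tested, 0 of 159 member promoters passed 0.05, against 0.071% of all regions opened and 0.0101% closed. At an unadjusted p under 0.05 there were 13, 8.18% of members against 9.34% of all promoter regions. Leaving out 1 library gave member medians between -0.040 and 0.032. The authors' deposited table listed 1 region of a member, 2228 bases from the start of Mrpl58, a mitochondrial ribosome protein with peptidyl-tRNA hydrolase activity, opened by a log2 fold of 0.33 (FDR 0.012), against 1.8% of the regions the authors tested opened and 0.0678% closed.

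With GSK-LSD1, the authors' deposited table lists lower accessibility at most ribosomal protein promoters, and at most promoters of any gene. Of the 159 member promoter regions, 130 held a closed row and 0 an opened one, counting rows annotated to any gene. That is 81.8% closed, against 34.3% of all regions the authors tested, 69.2% of all promoter regions and 75.7% of the promoter regions called in every library. Opened rows made up 6.82% of all regions and 0.953% of promoter regions. The share closed was 69 of 81 for cytosolic and 61 of 78 for mitochondrial members. The median log2 fold of the closed members in the authors' deposited table was -0.40, with a range from -0.65 to -0.24, against -0.43 for all closed promoter regions.

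On the centred scale the shift over all 159 members was smaller. The 2 values are not alike, since the authors' -0.40 covers only the 130 listed regions and comes from reads, not summit pileup. Member medians were 1.60 and 1.56 in the Vehicle libraries and 1.41 and 1.34 in the LSD1i libraries, with no overlap. The median difference, LSD1i minus Vehicle, was -0.16 for members and -0.17 for all promoter regions, and 138 of 159 members (86.8%) lay below 0, as did 82.9% of all promoter regions. Both LSD1i libraries lay below both Vehicle libraries at 99 of 159 members, 62.3%, against 49.7% of all promoter regions. By limma none of the 159 passed the adjusted threshold (lowest adjusted p 0.114, for Rpl4, a large subunit protein), against 4% of all 41324 regions opened and 2.05% closed, and 0.68% and 1.72% of promoter regions. At an unadjusted p under 0.05 there were 19, 11.9% of members against 15.1% of all promoter regions. On libraries simulated for this comparison, with 33368 regions and an SD of 0.21 between replicates, the test found 1% of changes of 0.5 on the log2 scale and 83.5% of changes of 1. The simulation used the same SD for every region and 200 changed regions, while the median replicate SD of a member was 0.14. These shares thus do not tell how often a change at a member promoter would be found.

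The size of the shift depends on the scaling. Without centring, where the median of all regions tested was -0.19, the member median was -0.32 and that of all promoter regions -0.32. With each library's trend with signal strength removed, the member median was -0.00537 and Mrpl1, at an opened promoter, was the 1 call. Estimating the spread on the 4 libraries alone gave 4 closed members, Mrpl40, Rpl41, Rpl7a and Rps19bp1. The shares of all regions called under these alternatives are not given here, so these calls are not set against a background. Leaving out 1 library gave member medians between -0.22 and -0.11. The authors' own scaling is not stated.

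**Figure D2:**
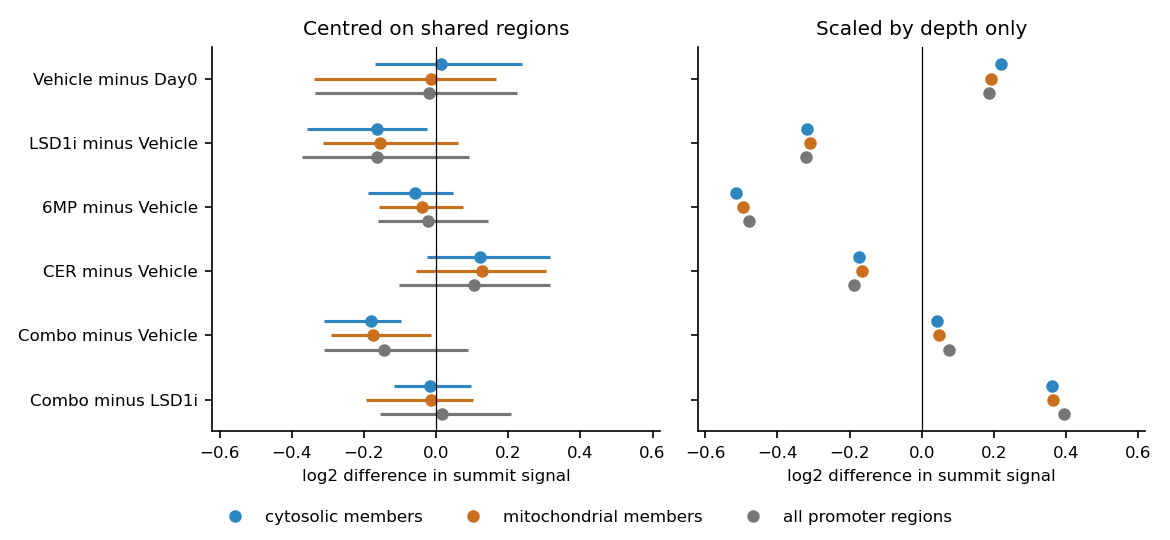
Log2 difference in summit signal for cytosolic members, mitochondrial members and all promoter regions in 6 comparisons. On the left, dots are medians and lines run from percentile 10 to percentile 90 on the centred scale. On the right, dots are medians with depth as the only scaling. Members lie beside all promoter regions in each comparison, and both member medians of CER minus Vehicle, Combo minus Vehicle and Combo minus LSD1i change sign between the panels, as does the mitochondrial one of Vehicle minus Day0.

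Rps19, in human the gene most often mutated in Diamond-Blackfan anaemia, had a signal of 2.62 and 2.66 in the Vehicle libraries, 2.52 and 2.43 with LSD1i, and 2.59 and 2.47 with Combo. Its LSD1i libraries lay below both Vehicle libraries, but the difference of -0.16 ± 0.22 (SE) was within the spread (limma adjusted p = 0.700). Across all 12 libraries it ran from 2.35 to 2.98, the extremes being the 6MP replicates. The authors' deposited table gave it a fold of -0.45. Rplp0 stood at 2.74 and 2.79 in Vehicle, 2.64 and 2.57 in LSD1i and 2.66 and 2.44 in Combo, again without overlap. Rpsa stood at 1.81 and 1.62 in Vehicle and at 1.56 and 1.30 in LSD1i, a difference of -0.28 ± 0.16 (SE, limma adjusted p = 0.353). That was the lowest difference among the 12 members named by role, which lay between -0.28 and 0.03 for LSD1i minus Vehicle.

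Rpl5 and Rpl11 join 5S ribosomal RNA in a particle that can hold back Mdm2 when ribosome assembly fails. Rpl5 stood at 2.23 and 1.93 in Vehicle, 2.22 and 1.99 in LSD1i and 1.88 and 1.87 in Combo. Its LSD1i and Vehicle libraries overlapped, and its promoter was not listed in the authors' deposited table. Rpl11 stood at 1.54 and 1.60 in Vehicle, 1.28 and 1.36 in LSD1i and 1.49 and 1.38 in Combo. It lay below Vehicle in all 4 libraries with GSK-LSD1, with a fold of -0.38 for LSD1i in the authors' deposited table. A second Rpl11 row there, at distance 0 from a start not placed here, carried -0.65. Rps14 overlapped between Vehicle (1.88 and 1.82) and LSD1i (1.95 and 1.70), and its promoter was not listed either. Rps27l, a paralog of Rps27 known as a p53 target, and Rpl22l1, the paralog of Rpl22, carried folds of -0.37 and -0.29 in the authors' deposited table. The large subunit gene Rpl10a carried -0.32. On the centred scale they differed by -0.10, -0.13 and -0.16, with SEs of 0.16, 0.16 and 0.17.

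Among mitochondrial members, Mrps6, which starts in 1 region with Slc5a3, stood at 2.02 and 1.83 in Vehicle and 1.75 and 1.59 in LSD1i. Mrps12 stood at 1.83 and 1.93 in Vehicle and 1.84 and 1.61 in LSD1i, which overlap. Mrpl12 stood at 1.27 and 1.28 in Vehicle and 1.25 and 1.11 in LSD1i. The authors' deposited table closed these with folds of -0.58, -0.34 and -0.40. In all, 10 of the 12 named promoters were closed in the authors' deposited table, and the limma adjusted p of none of the 12 was below 0.340.

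**Figure D3:**
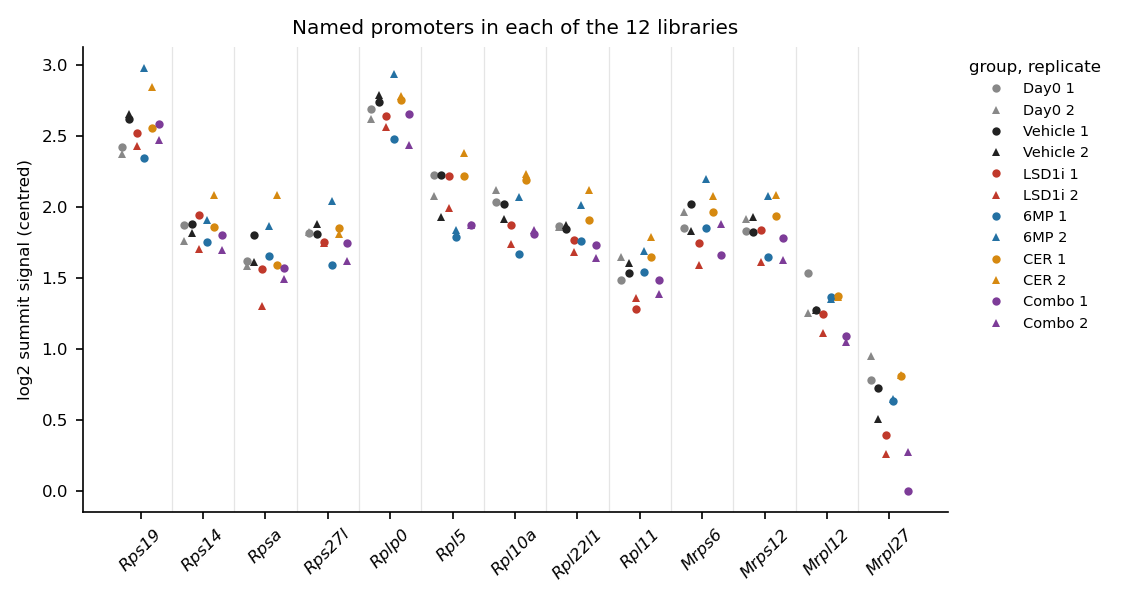
Log2 summit signal, centred on shared regions, at the promoters of 12 members named by role and of Mrpl27 in each of the 12 libraries. Colours are groups, circles are replicate 1 and triangles replicate 2. The spread between the 6MP replicates is as wide as most gaps between groups, and Combo replicate 1 lies lowest at Mrpl27.

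The lowest folds among closed member promoters in the authors' deposited table were those of Mrps5 (-0.65), Rps19bp1 (-0.63) and Rps10 (-0.61). Rps19bp1 fits the symbol rule but encodes a binding protein of RPS19 and no ribosomal protein. Rps19bp1 stood at 1.53 in both Vehicle libraries and at 1.10 and 1.05 in LSD1i (-0.45 ± 0.17, limma adjusted p = 0.116). Rps10 stood at 1.64 and 1.77 in Vehicle, 1.38 and 1.28 in LSD1i and 1.21 and 1.23 in Combo, and both CER libraries (1.36 and 1.60) and 6MP replicate 1 (1.15) also lay below both Vehicle libraries. Mrps5, Rps19bp1 and Rps10 were picked after their values were seen.

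The median of LSD1i minus Vehicle was -0.17 for 51 member regions with the ETS letters and -0.16 for 85 without, and -0.15 for 30 with a pyrimidine run and -0.16 for 105 without. It was -0.18 for 74 with the SP1 letters and -0.13 for 61 without, and -0.20 for 11 with TATAAA and -0.16 for 122 without. None of these was tested. The median level was 1.72 with the SP1 letters and 1.20 without. A region with several starts can count on both sides.

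With mercaptopurine or cerulenin alone no member promoter passed the test. For 6MP the median member signals were 1.38 and 1.69, on both sides of the Vehicle libraries. The median difference, 6MP minus Vehicle, was -0.048 for members and -0.021 for all promoter regions, and limma called 0 members, against 0% of all 37145 regions, with 1 member at an unadjusted p under 0.05 (1.39% of all promoter regions). Leaving out 6MP replicate 1, the library with the lowest signal over background, or 6MP replicate 2 gave medians between -0.18 and 0.10. Scaled by depth, the 6MP medians were -0.50 for members and -0.48 for all promoter regions. No table of the authors was used for 6MP. For CER the medians were 1.65 and 1.78, above both Vehicle libraries, and the median difference was 0.12 for members and 0.11 for all promoter regions. Both CER libraries lay above both Vehicle libraries at 71 of 159 members, 44.7%, against 35.4% of all promoter regions. Limma called 0 members, against 0.154% of 38410 regions opened and 0.174% closed, and 18 members, 11.3%, had an unadjusted p under 0.05, against 9.38% of all promoter regions. Mrpl14, a mitochondrial large subunit gene, came closest (0.53 ± 0.15, adjusted p = 0.108). Its promoter stood at 1.54 and 1.24 in Vehicle and 1.86 and 1.98 in CER, and it passed as opened when Vehicle replicate 1 was left out. Scaled by depth, the CER median was -0.17. The authors' deposited table for CER listed 0 member regions, against 0.00637% of regions opened and 0.359% closed.

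With the 3 drugs together, the authors' deposited table listed none of the 159 member promoter regions in either direction. Of all regions tested 12.8% were opened and 2.15% closed, and 2.11% and 0.347% of all promoter regions. Outside the 159, rows annotated as promoter were listed as opened for Mrpl37 (2.24), Mrps36-ps2 (0.80) and Rps9 (0.52, FDR 0.0454, 829 bases from its start). On the centred scale most of the 159 regions were lower than in Vehicle. Member medians were 1.33 and 1.38 in the Combo libraries. The median difference, Combo minus Vehicle, was -0.18 for members and -0.15 for all promoter regions, and 153 of 159 members, among them all 81 cytosolic ones, lay below 0 (96.2%), as did 82.7% of all promoter regions. Both Combo libraries lay below both Vehicle libraries at 112 members, 70.4%, against 50.9% of all promoter regions. Scaled by depth the median turned to 0.045 for members and 0.077 for all promoter regions, so the direction at these promoters rests on the centring. Combo and LSD1i were compared with the same Vehicle libraries.

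Limma called 1 member promoter with Combo, against 3.11% of all 42679 regions closed and 4.96% opened, and 1.14% and 0.802% of promoter regions. This was Mrpl27, whose promoter is printed above and which starts with Eme1, an endonuclease subunit. Its signal was 0.73 and 0.51 in Vehicle, 0.39 and 0.26 in LSD1i and 0.00 and 0.27 in Combo, so all 4 libraries with GSK-LSD1 lay below both Vehicle libraries. It fell by 0.48 ± 0.14 (SE; limma adjusted p = 0.0307) with Combo. The call was lost without Combo replicate 1 (adjusted p = 0.375), without Vehicle replicate 1 (adjusted p = 0.241), and with scaling by depth, where the difference was -0.26. It held in 7 of 12 alternatives, over which the limma adjusted p ran from 0.0112 to 1. At an unadjusted p under 0.05 there were 15 members, 9.43% against 9.5% of all promoter regions.

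Set directly against each other, Combo and LSD1i gave no call at a member promoter. The median difference, Combo minus LSD1i, was -0.015 for members and 0.016 for all promoter regions, with a lowest member of -0.30 and a highest of 0.21. Limma called 0 members, against 0.0893% of 43671 regions opened and 0.0229% closed, and 0 had an unadjusted p under 0.05, against 4% of all promoter regions. Scaled by depth the median was 0.36 for members and 0.39 for all promoter regions, with 0 members called.

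The regions listed away from a member's start included opened ones, unlike the promoters. Of the 148 rows of members in the authors' deposited table for LSD1i, 106 lay at a member's start and all were closed, and of the other 42, 36 were closed and 6 opened. Over all genes the authors' deposited table for LSD1i held 17729 closed and 3518 opened rows. Of the 15 rows for Combo in the authors' deposited table none lay at the start of a protein-coding member, 13 were opened and 2 closed, beside 6813 opened and 1142 closed rows over all genes. The annotation names the nearest gene and does not say which gene a region serves. Some of these rows are listed at distance 0 from a start of the gene that was not placed here (Rpl36, Mrpl38, Mrpl14, Rpl11, Mrpl4, Rpl17). For Combo, 1 is listed at distance 0 from the start of the pseudogene Mrps36-ps2. Over 49 such regions, limma opened 2 and closed 1 of 40 tested for LSD1i, against 4% of all regions opened and 2.05% closed. It opened 5 and closed 2 of 43 for Combo, against 4.96% and 3.11%, and opened 1 of 37 for CER, against 0.154%. It called none for Vehicle against Day0, 6MP or Combo against LSD1i. The rows were listed for their change against Vehicle in these same libraries. These counts, and the limma values of single listed regions given below, thus describe the listed rows and support nothing further.

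**Figure D4:**
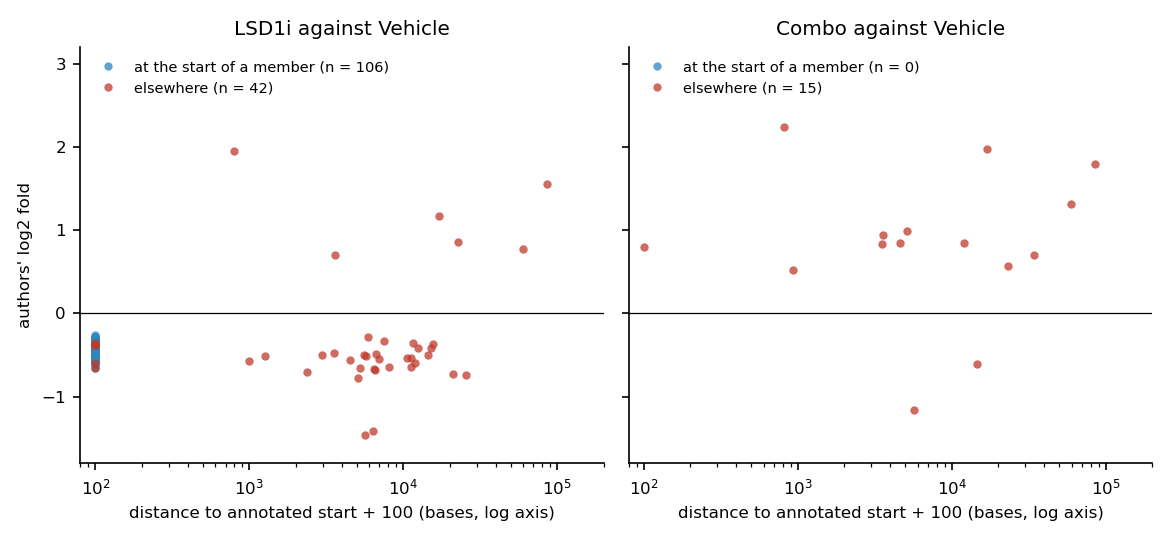
The authors' log2 fold of each listed region of a member gene against its distance to the annotated start plus 100 bases, on a log axis, for LSD1i and Combo. The 106 rows at a member's start are all negative for LSD1i and none is listed for Combo, while most rows for Combo lie above 0.

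A region at chr4:107058858-107059250 (mm10), 700 bases from an annotated start of Mrpl37, had a peak in the 4 libraries that received GSK-LSD1 and in no other. Its summit pileup was 32 and 41 fragments with LSD1i and 50 and 45 with Combo. The authors' deposited table gave log2 folds of 1.95 (FDR 2.79e-08) for LSD1i and 2.24 (FDR 3.91e-11) for Combo. The promoter of Mrpl37 itself, at chr4:107066349-107067628, was not called (limma adjusted p = 0.377 and 0.362) and stood lower in all 4 (1.76 and 1.60 in Vehicle, 1.53 and 1.34 in LSD1i, 1.41 and 1.44 in Combo). A region 85.8 kb from the start of Rps23 showed the same pattern of peaks, with pileups of 22 and 35 in LSD1i and 41 and 33 in Combo, and folds of 1.55 and 1.8 in the authors' deposited table. These regions have no Vehicle peak and so no limma value against Vehicle. Combo minus LSD1i was 0.027 ± 0.27 (SE) at Mrpl37 and 0.045 ± 0.30 at Rps23, which did not pass (limma adjusted p = 0.994 and 0.990).

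A second region near Rps23, at chr13:90983899-90984683, 59.7 kb from its start, had pileups of 30 and 40 in Vehicle, 62 and 81 in LSD1i and 83 and 110 in Combo. It opened by 1.15 ± 0.25 with LSD1i (SE; limma adjusted p = 0.00546) and by 1.22 ± 0.26 with Combo (limma adjusted p = 0.00241). The LSD1i call was lost with scaling by depth (adjusted p = 0.321) and without LSD1i replicate 1 (0.0721), LSD1i replicate 2 (0.119) or Vehicle replicate 1 (0.0780), and its adjusted p ran from 0.00247 to 0.321 over 10 alternatives. The Combo call was lost without Combo replicate 2 (adjusted p = 0.0926). Day0 had no peak there, and the Rps23 promoter differed by -0.15 and -0.13, which did not pass. The region at chr6:39787910-39789095, 16.9 kb from Mrps33, had 23 and 21 fragments in Vehicle, 46 and 71 in LSD1i and 91 and 119 in Combo. It opened by 1.49 ± 0.30 (SE; limma adjusted p = 0.00247) and 2.00 ± 0.30 (limma adjusted p = 5.75e-05). The first of these calls was lost without LSD1i replicate 2 (adjusted p = 0.100). The Combo call held in all 11 alternatives. Libraries without a peak, both CER ones and 6MP replicate 1, were dropped from this fit. Combo minus LSD1i was 0.50 ± 0.30 there, which did not pass (limma adjusted p = 0.583).

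**Figure D5:**
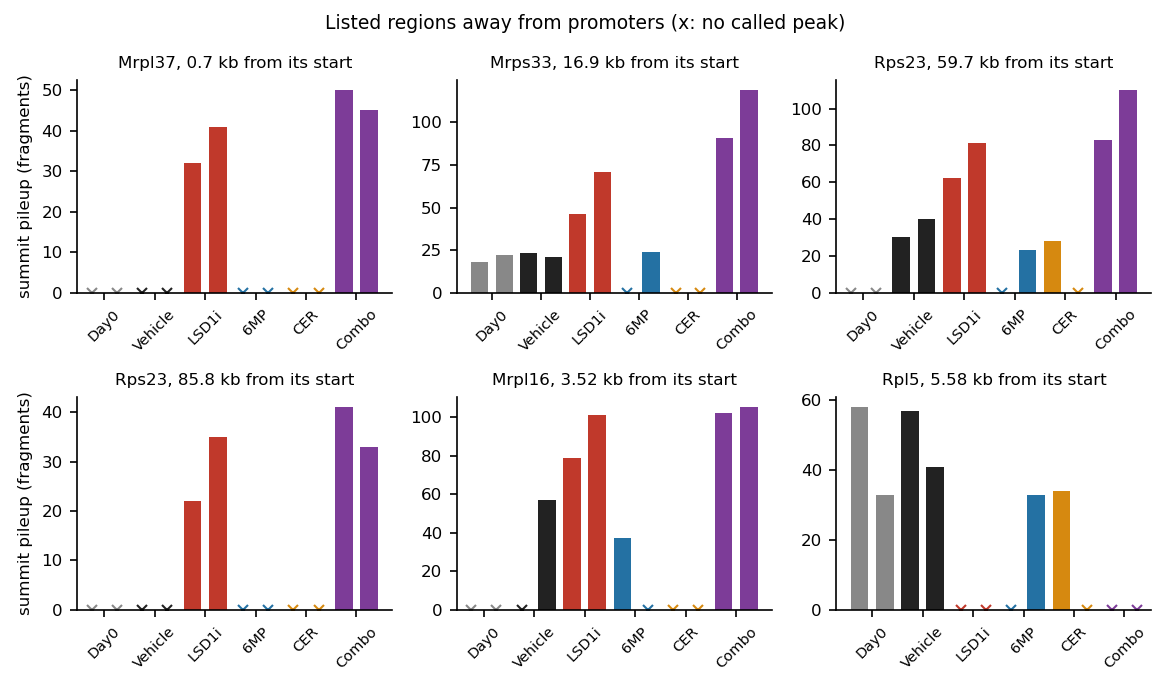
Fragment pileup at the strongest summit of 6 listed regions in each of the 12 libraries, replicate 1 left and replicate 2 right in each group, with a cross where no peak was called. Pileups are not scaled for depth. The regions near Mrpl37 and the farther one near Rps23 have peaks in LSD1i and Combo alone, and the one near Rpl5 has none in these 4 libraries.

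Other listed regions were opened with Combo. The one 3.46 kb from Mrpl33 had 51 and 50 fragments in Vehicle, 41 and 49 in LSD1i, 89 and 66 in CER and 105 and 97 in Combo, and it opened by 0.75 ± 0.20 with Combo (SE; limma adjusted p = 0.0182) and by 0.88 with CER (limma adjusted p = 0.0477). The authors' deposited table opened it with Combo (0.84, FDR 0.00106) and closed it with LSD1i (-0.48, FDR 0.0468). Their table for CER listed 0 member regions, and the CER call was not tried under the alternatives. The centred difference at the Mrpl33 region was -0.058 with LSD1i and 0.81 for Combo minus LSD1i (limma adjusted p = 0.0895). A region 5.06 kb from Mrps28 went from 23 and 46 in Vehicle to 93 and 68 in Combo (1.04 ± 0.28, limma adjusted p = 0.0182). Without either Combo library or Vehicle replicate 2 the Mrpl33 region did not pass with Combo (adjusted p = 0.0819 to 0.185), and without Combo replicate 1 or Vehicle replicate 1 the Mrps28 region did not (adjusted p = 0.265 and 0.370). Without Vehicle replicate 2 the Mrps28 region also passed with LSD1i (1.02, limma adjusted p = 0.0419). A region 3.52 kb from Mrpl16 had a peak in Vehicle replicate 2 and 6MP replicate 1 and in all 4 libraries with GSK-LSD1, with folds of 0.70 and 0.94 in the authors' deposited table. Its pileup was 79 and 101 in LSD1i and 102 and 105 in Combo.

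Some listed regions closed by more than the promoters did. A region 5.58 kb upstream of Rpl5, at chr5:107894593-107894924, had pileups of 58 and 33 in Day0, 57 and 41 in Vehicle, 33 in 6MP replicate 2 and 34 in CER replicate 1. It had no peak in any of the 4 libraries with GSK-LSD1, nor in 6MP replicate 1 and CER replicate 2, the libraries of lowest signal over background. The authors' deposited table gave folds of -1.46 (LSD1i) and -1.16 (Combo). A region 14.4 kb from Mrpl14 went from 158 and 202 in Vehicle to 122 and 120 in Combo and fell by 0.81 ± 0.16 (SE; limma adjusted p = 0.00098), and one 5.64 kb from Mrps36 fell by 0.52 ± 0.15 (limma adjusted p = 0.0228). Scaled by depth neither passed, with differences of -0.59 and -0.30. The Mrpl14 call held in the other 11 of 12 alternatives, and the Mrps36 call was also lost without either Combo library or Vehicle replicate 2 (adjusted p = 0.135 to 0.203). A region 6.47 kb from Mrps23 fell with LSD1i by 0.73 ± 0.22 (limma adjusted p = 0.0458), from 117 and 69 to 44 and 57, but the call held in 5 of 11 alternatives and was lost without either LSD1i library or Vehicle replicate 1, where the difference was -0.31. Of the authors' other large folds for LSD1i, the deposited table gave -1.41 at a region 6.27 kb from Mrpl33, -0.77 near Rpl32, -0.74 at 1 of 4 regions near Rps14 and -0.70 at the region near Mrpl58. On the centred scale the last 3 differed by -0.42, -0.58 and -0.38 and did not pass (limma adjusted p = 0.0734, 0.0851 and 0.218).

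Some listed genes are no ribosomal protein genes by their listed biotype. Rps4l and Rps3a3 are listed as processed pseudogenes, with a fold of 0.86 at a region 22.5 kb from Rps4l and -0.37 at one near Rps3a3 in the authors' deposited table for LSD1i. Mrps36-ps2, a pseudogene of a mitochondrial ribosomal protein that the rule kept, opened at its start with Combo by 0.80 in the authors' deposited table.

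The other genes of ribosome making and translation were listed in shares close to those of the members in the authors' deposited table for LSD1i. Against 69.2% of all promoter regions and 75.7% of those called in every library, it closed 46 of 58 (79.3%) promoter regions of ribosome biogenesis genes, 38 of 44 (86.4%) of cytosolic translation factors, and 26 of 35 (74.3%) of mitochondrial translation and ribosome assembly genes. For Combo it listed none of them. With LSD1i limma closed 1 of the 44 translation factor regions, and 0 of the 58 and of the 35 in the other lists. With Combo the counts were the same. Of all promoter regions limma closed 1.72% and opened 0.68% with LSD1i, and closed 1.14% and opened 0.802% with Combo. Eif3i, a subunit of initiation factor 3, stood at 0.23 and 0.20 in LSD1i, below both Vehicle libraries at 1 and 0.46 (-0.51 ± 0.15, limma adjusted p = 0.0399). Eef2, the elongation factor that moves the ribosome along, stood at 1.31 and 1.34 in Vehicle and 0.75 and 0.71 in Combo (-0.59 ± 0.14, limma adjusted p = 0.00496). Neither of these calls was tried under the alternatives.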

How the data were processed

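ATAC-seq was measured in 12 libraries, 2 in each of 6 groups, on the mm10 build. The submitters' processing notes name MACS2 2.1.2, DiffBind, Bowtie2, Trimmomatic 0.38, Picard 2.18.26 and SAMtools 1.9; settings are not given in the sources used here. The authors deposited 1 peak list per library, in which each peak has a score in whole numbers. The fold ratio (summit against background) and the -log10 p and q values are also as deposited by the authors. The authors deposited tables of log2 levels and log2 folds per comparison, with the p-value and FDR of each listed region, all at an FDR of 0.05 or less; their scaling is not stated. The number of regions they tested was worked out from the ranks of these values. The table for 6MP was left out.

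The members and lists were chosen with earlier results of these data known. Pileup and background of each summit were solved from the fold ratio and p-value; 100% of pileups were whole numbers at a tolerance of 0.001 in -log10 p, and the solution was tested on 20000 simulated summits. Peaks were joined into 73156 regions, of which 33368 were called in all 12 libraries. Where both groups had peaks in all 4 libraries, a region was compared with limma 3.58.1 (R 4.3.3) with a mean per group over all 12 libraries and a trend in the prior variance, adjusted by Benjamini-Hochberg. A library without a peak in a region was dropped from that region's fit. With 2 libraries per group and median pileups of 50 to 75, counting error limits weak regions. Starts came from RefSeq GRCm38.p6, for 138 member genes from its promoter table. For 29 the gene end with the stronger peak was used, which can be the far end of the gene.

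Genes were named by these rules: 12 members by role, up to 5 opened and 5 closed by fold in each deposited table, up to 10 past the limma threshold, the 5 highest and 5 lowest promoters, and symbols that are no ribosomal protein. Alternatives were scaling by depth, centring by intensity, the replicate number as a block, stricter peaks, other region sets, other starts, and leaving out each library.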

Additional observations from a re-analysis of the deposited data

How the results depend on the processing

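The peak shares did not move under either alternative, and 51 of 68 medians and 64 of 80 counts of calls stayed within the spread between replicates or within 1.5 times. For the authors' tables, an FDR of 0.01 or less left 0 member regions for Vehicle against Day0 and 9 for Combo, and promoter-annotated rows alone left 3 for Combo. Scaling by depth moved the member medians to 0.21 (Vehicle minus Day0), -0.32 (LSD1i), -0.50 (6MP), -0.17 (CER), 0.045 (Combo) and 0.36 (Combo minus LSD1i), and left 0 Combo calls. Centring by intensity moved them to -0.045 (Vehicle minus Day0), -0.00537 (LSD1i) and -0.044 (Combo), with 1 call for LSD1i and 1 for CER. The spread of the 4 libraries gave 4 calls for LSD1i and 3 for Combo, and stricter peaks gave 2 for Combo (Mrpl27 and Rps10). A term for the suffix R, which 1 library each of Vehicle, 6MP, CER and Combo carries and which is not the suffix P of Day0, was chosen after seeing the data. It gave 3 calls and a median of -0.027 for Vehicle minus Day0, 1 call for LSD1i (Mrpl24), 1 for CER and 3 for Combo.

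Leaving out 1 library gave 0 to 2 calls for Vehicle against Day0, LSD1i and Combo, 0 to 1 for CER, and 0 for the others. The medians then ran from -0.040 to 0.032 (Vehicle minus Day0), -0.22 to -0.11 (LSD1i), -0.18 to 0.10 (6MP), 0.069 to 0.19 (CER), -0.21 to -0.14 (Combo) and -0.075 to 0.045 (Combo minus LSD1i). Where this leaves 1 library in a group, it is assumed to vary like the others. The cause of these moves was not tested. Shares of all regions called under the alternatives are not given here, so the counts of calls in this section have no background.

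The replicate numbers are shared between groups, but no pairing is stated. Deviations of same-numbered libraries correlated between -0.34 and 0.25. Where the suffix R falls on the same number in both groups, the correlation was positive (Vehicle with CER 0.25, 6MP with Combo 0.14). Between the other pairs of Vehicle, 6MP, CER and Combo it was negative (-0.34 to -0.038). Pairs with Day0 or LSD1i, where no library carries the suffix R, ran from -0.18 to 0.15. Whether the suffix accounts for any of these values was not tested. With the number as a replicate block limma gave 1 call for Combo and 0 for the other comparisons, as without it, and crossed numbers, added after seeing the data, gave 0 for 6MP and 1 for Combo.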
